A study of Mus musculus with 10 samples.

Results

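The genes described here encode enzymes that degrade amino acids or that build urea from the nitrogen this releases. A fixed list of 39 gene symbols was matched to the rows of the count table, all 39 were found among its 23055 named genes, and all 39 passed the filter on low counts that left 13687 genes for testing. The list follows the genes' functions, and each gene was placed with the amino acid whose breakdown it serves. This list and the further ones below were chosen with earlier results of these data known. Their shares set against all genes are therefore descriptive. The data are bulk RNA sequencing of mouse liver, 6 libraries of wild-type (WT) mice and 4 of Ifrd1 knockout (KO) mice. Ifrd1 encodes a co-regulator of transcription. All 10 livers were taken 12 h after partial hepatectomy, in which the left lateral and median lobes were cut away under isoflurane and the remaining liver begins to regrow. The stated aim of the study was to learn how expression responds in the regenerating liver and what part Ifrd1 has in it. Both genotypes had surgery, so levels before hepatectomy were not analysed here. The labels give neither strain, sex nor age, nor how or in which cells Ifrd1 was removed. They number the libraries without naming the animals, so the p-values measure only the spread between these libraries.

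In hepatocytes, transaminases, dehydratases and oxygenases strip the nitrogen from amino acids and pass their carbon to glucose or energy production. The freed ammonia enters the urea cycle as carbamoyl phosphate, is joined to ornithine and then to aspartate, and leaves as urea when arginine is split. Several of these enzymes are classic targets of glucagon, glucocorticoids and feeding, and their transcripts are laid out unevenly between the portal and central ends of the liver lobule. In bulk tissue, fewer cells of a type and less RNA per cell cannot be told apart.

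Total counts of named genes per library ran from 12306369 to 17096628. Mitochondrially encoded genes took 14.5% to 17.6% of them in WT replicates 1 to 3 and 24.5% to 28.9% in WT replicates 4 to 6. In KO this share ran from 16.5% to 30.5%, and its part in the results was not tested. The level of Ifrd1 itself was 40.2 to 81.7 CPM in WT, where CPM is the count scaled to the size of the library, and 13.0, 22.6, 20.8 and 21.6 CPM in KO, with no overlap. Its log2 fold change was -1.59 ± 0.23 SE (adjusted p = 0.0258 by the quasi-likelihood test of edgeR, adjusted after Benjamini-Hochberg). Leaving out WT replicate 1 or 5, or any 1 KO library, took this adjusted p to between 0.0520 and 0.132. For 7804 of the 13687 genes (57.0%) the level in WT replicate 4 fell inside the range of the KO libraries, which touches many values given here. Hepatocyte markers were abundant in every library, with a summed level of 41786 to 94379 CPM in WT and 52714 to 64146 CPM in KO. All 6 Kupffer cell and macrophage markers were lower on average in KO, with a median log2 fold change of -0.98 and summed levels of 37.9 to 219 CPM in WT and 31.2 to 65.2 CPM in KO. The 3 tested neutrophil markers were also lower, with summed levels of 6.40 to 165 CPM in WT and 3.46 to 11.7 CPM in KO. None of these markers was called by edgeR or limma-voom. In edgeR 3 of the Kupffer cell and 2 of the neutrophil markers had an unadjusted p under 0.05, and DESeq2 called Clec4f and S100a8 as lower. Of 5 sinusoidal endothelium markers, 4 had a fold change above 0 and 1 below. EdgeR and limma-voom called none of them, 1 was higher at an unadjusted p under 0.01 in edgeR, and DESeq2 called Clec4g as higher. Their summed levels were 61.1 to 137 CPM in WT and 82.1 to 127 CPM in KO. The part of these cell types in the results was not tested.

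In KO liver, edgeR called 2 of the 39 genes as lower and none as higher. The called genes were Tat, tyrosine aminotransferase, which starts tyrosine breakdown, and Sds, serine dehydratase, which turns serine into pyruvate and ammonia. Both calls were lost when any library other than WT replicate 4 was left out. With edgeR's quasi-likelihood p adjusted by Benjamini-Hochberg over all 13687 genes, and called here under 0.05, 1.33% of all genes passed, 0.767% as lower and 0.563% as higher in KO. The 2 called members were 5.13% of the list. DESeq2 called 9 members, all lower (Tat, Sds, Sdsl, Cth, Ass1, Gnmt, Gpt, Aass and Got1), or 23.1% of the list, where it called 10.3% of the 15831 genes it gave an adjusted p, 6.6% as lower and 3.66% as higher. Limma-voom called Tat and Sds, and 2.07% of all genes, 0.548% as lower and 1.52% as higher. No member passed as higher by any of these 3 tools.

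Before adjustment for the number of genes, 11 members (28.2%) had a p under 0.05 in edgeR, against 26% of all genes. This share of both directions together was near the background. By direction, 9 members were lower (23.1%, against 14.4% of all genes) and 2 were higher (5.13%, against 11.6%). At an unadjusted p under 0.01 the list held 8 lower members (20.5%, against 6.31% of all genes) and 0 higher members (against 3.86%). The 8 were Tat, Sds, Sdsl, Cth, Ass1, Gnmt, Gpt and Aass, which serve 6 different pathways. Across the list the fold changes were nearly balanced in sign, with 22 of 39 (56.4%) above 0 against 48.4% of all genes. Their median log2 fold change was 0.05, against -0.02 for all genes tested.

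**Figure D1:**
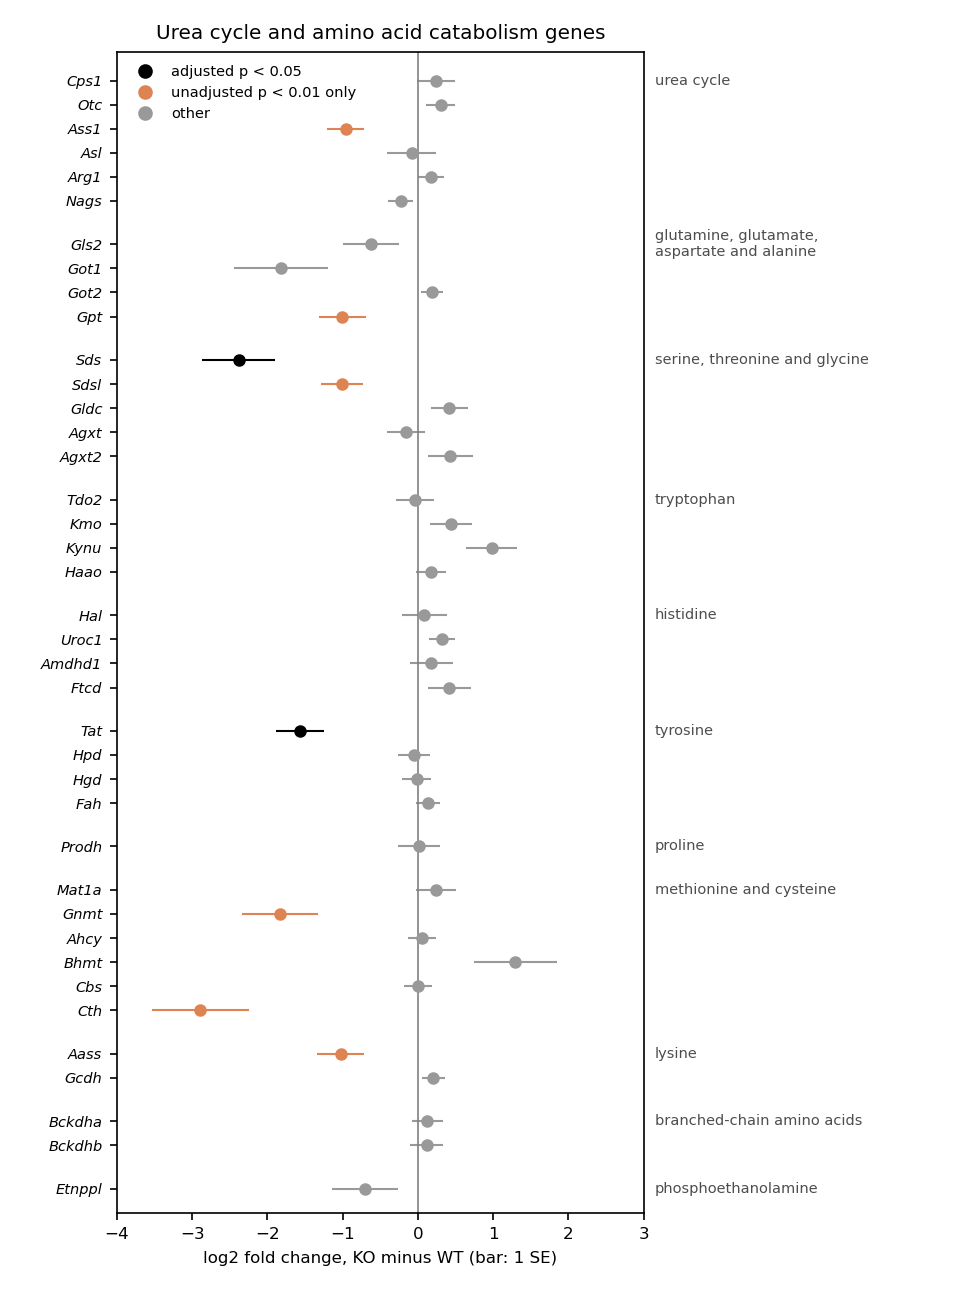
Log2 fold change, KO minus WT, of the 39 genes grouped by the amino acid they degrade, with bars of 1 standard error from edgeR. Tat and Sds, in black, had an adjusted p under 0.05. Ass1, Gpt, Sdsl, Gnmt, Cth and Aass, in orange, lay below 0 with an unadjusted p under 0.01, and most other genes lay close to 0.

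Tyrosine breakdown begins with Tat, which moves the amino group of tyrosine to 2-oxoglutarate, and it was the most abundant member per length in WT liver. Tat lies at chr8:109990437-109999803 on the + strand (GRCm38). Its promoter is shown because Tat had the smallest p of the list, and RefSeq's annotation of GRCm38.p6 places it at chr8:109990186-109990485, from 250 bases before the start of transcription to 50 bases after it. The capitals mark each copy of CCAAT, the letters of the CCAAT box, or of its reverse complement.

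Tat promoter: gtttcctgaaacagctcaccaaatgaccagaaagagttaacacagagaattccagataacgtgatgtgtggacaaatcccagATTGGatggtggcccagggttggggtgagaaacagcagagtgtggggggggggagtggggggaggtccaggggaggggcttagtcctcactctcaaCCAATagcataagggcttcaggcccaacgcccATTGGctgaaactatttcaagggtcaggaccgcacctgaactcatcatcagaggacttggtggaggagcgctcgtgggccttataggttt

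Counted from the start to the leftmost base of each match, the copies lay at -168 (- strand), -72 (+ strand) and -40 (- strand). CCAAT occurs on either strand in 37.4% of the 32851 mouse promoters of the same length, and it was looked for after the sequence had been seen. The cyclic AMP response element (TGACGTCA, in 1.79% of promoters), its shorter core (TGACG, 20.8%), the core of the glucocorticoid response element (TGTTCT, 19.0%) and the C/EBP palindrome (TTGCGCAA, 0.183%) were not found in this window on either strand. Of the 39 genes, 29 had a promoter entry. In their first entry, 14 of them held CCAAT, 3 the TGACG core, 4 the TGTTCT core, and 0 TGACGTCA or TTGCGCAA.

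In WT, Tat ranged from 1366 to 4362 CPM with a median of 3085 CPM. The KO libraries had 919, 676, 1108 and 1438 CPM. The mean fell from 3065 ± 1067 (SD, n = 6) to 1035 ± 322 CPM (SD, n = 4), a log2 fold change of -1.57 ± 0.32 SE, or 2.96-fold lower (edgeR adjusted p = 0.0460). WT replicate 4, at 1366 CPM, was the one WT library inside the KO range, and the other WT libraries all lay above it from 2527 CPM.

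The later steps of tyrosine breakdown had fold changes close to 0. Hpd, which makes homogentisate, averaged 730 ± 183 CPM in WT and 705 ± 110 CPM in KO. Hgd, which opens the ring of homogentisate, averaged 188 ± 43.8 and 185 ± 32.8 CPM. Fah, the last enzyme of the route, averaged 338 ± 55.2 and 372 ± 29.2 CPM. Their log2 fold changes lay between -0.05 and 0.14, and their adjusted p between 0.619 and 0.967 in edgeR. None of these 3 later steps was called by edgeR, DESeq2 or limma-voom, or had an unadjusted p under 0.05 in edgeR.

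Serine and threonine are deaminated by Sds and its paralog Sdsl, which are neighbors on chromosome 5. Sds lies at chr5:120476526-120483932 on the + strand and Sdsl at chr5:120458186-120472810 on the - strand (GRCm38). In WT, Sds ranged from 78.9 to 421 CPM with a median of 148 CPM. The KO libraries had 29.0, 30.3, 52.1 and 41.4 CPM, and every WT library lay above every KO library, although WT replicate 4 was the lowest of WT. The mean fell from 199 ± 135 to 38.2 ± 10.8 CPM, a log2 fold change of -2.38 ± 0.48 SE, or 5.20-fold lower (edgeR adjusted p = 0.0467). Plbd2, on the opposite strand, overlaps 21.3% of the exon bases of Sds. Since the sources used here do not say whether counting used the strand, reads from this overlap cannot be assigned with certainty, and Plbd2 had 0.434 times the counts of Sds over all libraries. Plbd2 itself averaged 60.2 CPM in WT and 47.8 CPM in KO (log2 fold change -0.33, edgeR adjusted p = 0.181).

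Sdsl, whose protein is related to that of Sds, ranged from 39.4 to 107 CPM in WT with a median of 84.9 CPM. Its KO libraries had 38.0, 30.2, 38.9 and 48.4 CPM. The log2 fold change was -1.01 ± 0.28 SE with an adjusted p of 0.0716 in edgeR, so Sdsl was not called. The groups overlapped through WT replicate 6 at 39.4 CPM, while WT replicate 4 at 48.7 CPM lay just above the highest KO library.

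The glycine and glyoxylate enzymes of this group were not called. Gldc, the decarboxylase of the glycine cleavage system, averaged 77.6 ± 24.7 CPM in WT and 104 ± 15.2 CPM in KO. Agxt, which moves the amino group of alanine to glyoxylate, averaged 177 ± 52.2 and 159 ± 50.7 CPM. Agxt2, a mitochondrial aminotransferase of glyoxylate, averaged 152 ± 65.9 and 205 ± 17.0 CPM. Their edgeR adjusted p lay between 0.305 and 0.728.

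Alanine, aspartate and glutamine were represented by 4 genes, of which none was called by edgeR or limma-voom and 2 were lower at an unadjusted p under 0.05 in edgeR. DESeq2 called these 2, Got1 and Gpt, as lower. Gpt, the alanine aminotransferase that feeds alanine carbon to pyruvate, ranged from 87.8 to 308 CPM in WT with a median of 153 CPM, and had 94.8, 77.1, 93.1 and 104 CPM in KO. Its log2 fold change was -1.005 ± 0.31 SE with an edgeR adjusted p of 0.0860. WT replicate 4 was the only WT library at or below the highest KO library.

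Got1, the cytosolic aspartate aminotransferase, is given by library because its unadjusted p of 0.0134 was seen to fall just outside the naming rule. It had 590 CPM in WT replicate 2 and 569 CPM in WT replicate 5, but 83.8 to 145 CPM in the remaining 4. In KO, Got1 had 86.7, 53.6, 61.6 and 105 CPM, so WT replicates 1 and 4 overlapped them. The log2 fold change of -1.82 ± 0.62 SE (edgeR adjusted p = 0.108) therefore came with a WT mean that stood on 2 libraries. Got2, the mitochondrial aspartate aminotransferase, averaged 238 ± 32.1 CPM in WT and 272 ± 17.3 CPM in KO (log2 fold change 0.19). Gls2, the liver glutaminase that releases ammonia from glutamine, averaged 84.0 ± 53.6 and 54.5 ± 5.70 CPM (log2 fold change -0.62, edgeR adjusted p = 0.306).

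Among the 6 genes of the urea cycle none was called by edgeR, and 1 had an unadjusted p under 0.05. This was Ass1, argininosuccinate synthase, which brings the second nitrogen into the cycle from aspartate. Ass1 ranged from 618 to 1566 CPM in WT with a median of 1231 CPM, and had 554, 644, 701 and 574 CPM in KO. The mean was 1202 ± 360 CPM in WT and 618 ± 67.2 CPM in KO, a log2 fold change of -0.96 ± 0.25 SE (adjusted p = 0.0621 by edgeR). WT replicate 4, at 618 CPM, was again the only WT library in the KO range, the others being at 1001 CPM or above. DESeq2 called Ass1 and no other gene of the cycle, and limma-voom called none.

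The other steps of the cycle gave small and mixed differences. Cps1, which makes carbamoyl phosphate from ammonia and commits it to the cycle, averaged 1443 ± 464 CPM in WT and 1704 ± 236 CPM in KO. Otc, which joins carbamoyl phosphate to ornithine, averaged 204 ± 50.2 and 252 ± 17.3 CPM. Asl, which splits argininosuccinate, averaged 730 ± 354 and 689 ± 111 CPM. Arg1, the arginase that releases urea, averaged 2345 ± 418 and 2646 ± 71.2 CPM and had the narrowest KO range of all members, with a highest library 1.06 times the lowest. Nags, which makes the activator of Cps1, averaged 39.01 ± 8.71 and 33.3 ± 1.84 CPM. Log2 fold changes of these 5 genes lay between -0.23 and 0.31, with edgeR adjusted p between 0.328 and 0.898.

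Methionine and cysteine metabolism held both the lowest and the highest fold change of the list. Methionine is activated to S-adenosylmethionine by Mat1a, Gnmt uses up the surplus of this methyl donor, and Ahcy frees homocysteine. Homocysteine is then either remade into methionine by Bhmt or passed through Cbs and Cth to cysteine. Of these 6 genes none was called by edgeR or limma-voom, and DESeq2 called Cth and Gnmt. In edgeR, 2 were lower and 1 was higher at an unadjusted p under 0.05.

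Cth, cystathionine gamma-lyase, ranged from 44.2 to 1066 CPM in WT with a median of 468 CPM. The KO libraries had 53.7, 72.8, 80.1 and 71.0 CPM. Its log2 fold change was -2.89 ± 0.64 SE, or 7.43-fold lower, with an edgeR adjusted p of 0.0535. WT replicate 4, at 44.2 CPM, was below every KO library, whereas the other 5 WT libraries started at 388 CPM and were all above them. Cbs, the enzyme just before it, averaged 239 ± 60.9 CPM in WT and 239 ± 11.8 CPM in KO (edgeR adjusted p = 0.999).

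Gnmt, glycine N-methyltransferase, ranged from 258 to 1713 CPM in WT with a median of 767 CPM. Its KO libraries had 277, 200, 316 and 226 CPM. The log2 fold change was -1.84 ± 0.51 SE (edgeR adjusted p = 0.0705). The overlap came again from WT replicate 4 at 258 CPM, and WT replicate 1 at 390 CPM was the next WT library up.

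Bhmt, betaine-homocysteine methyltransferase, is given by library because its groups were seen not to overlap. In WT it ranged from 211 to 3595 CPM with a median of 1594 CPM, and in KO it had 3979, 4742, 4926 and 5121 CPM. Every KO library lay above every WT library, the nearest being WT replicates 4 and 6 at 3595 and 3471 CPM. The log2 fold change was 1.30 ± 0.55 SE with an edgeR adjusted p of 0.168, so Bhmt was not called. Bhmt and Sds were the 2 members (5.13%) whose groups did not overlap, against 6.9% of all genes. Mat1a averaged 3140 ± 1097 CPM (WT) and 3713 ± 792 CPM (KO), and Ahcy averaged 456 ± 110 and 474 ± 27.9 CPM, with edgeR adjusted p of 0.588 and 0.882.

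Lysine is degraded in the mitochondrion by Aass, which carries out the first steps of the saccharopine route, and later by Gcdh, glutaryl-CoA dehydrogenase. Aass ranged from 544 to 2051 CPM in WT with a median of 1138 CPM, and had 727, 439, 608 and 514 CPM in KO. Aass had a log2 fold change of -1.02 ± 0.31 SE (edgeR adjusted p = 0.0845). WT replicate 4, at 544 CPM, was the only WT library inside the KO range. Gcdh averaged 259 ± 31.4 CPM in WT and 299 ± 36.9 CPM in KO (log2 fold change 0.20, edgeR adjusted p = 0.404).

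Tryptophan breakdown along the kynurenine route was covered by 4 genes, of which none was called by edgeR, DESeq2 or limma-voom and 1 was higher at an unadjusted p under 0.05. Kynu, kynureninase, ranged from 19.3 to 83.4 CPM in WT with a median of 43.5 CPM, and had 67.3, 85.5, 98.8 and 90.4 CPM in KO. Its log2 fold change was 0.98 ± 0.34 SE (edgeR adjusted p = 0.107). WT replicate 4, at 83.4 CPM, was the highest of WT and the only WT library within the KO range, so the library that was low for Cth, Tat and Ass1 was high for Kynu. Tdo2, the oxygenase that opens the route, averaged 561 ± 197 CPM in WT and 549 ± 117 CPM in KO. Kmo, the kynurenine hydroxylase, averaged 197 ± 69.8 and 267 ± 29.5 CPM. Haao, which opens the ring of hydroxyanthranilate, averaged 169 ± 44.5 and 192 ± 18.1 CPM.

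The 4 genes of histidine breakdown all had a fold change above 0 and none was called by edgeR, DESeq2 or limma-voom, nor had an unadjusted p under 0.05 in edgeR. Uroc1, urocanase, had the smallest p of the 4 and ranged from 101 to 142 CPM in WT with a median of 128 CPM. Its KO libraries had 121, 161, 196 and 144 CPM, and 3 of them lay above every WT library. The log2 fold change was 0.32 ± 0.17 SE (edgeR adjusted p = 0.256). Hal, which removes ammonia from histidine, averaged 98.9 ± 44.7 CPM in WT and 105 ± 20.7 CPM in KO. Amdhd1, the imidazolonepropionase, averaged 110 ± 47.1 and 125 ± 14.5 CPM, and Ftcd, which hands the last carbon to folate, 353 ± 144 and 472 ± 42.8 CPM.

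The remaining genes were not called by edgeR, DESeq2 or limma-voom, and none had an unadjusted p under 0.05 in edgeR. Prodh, proline dehydrogenase, ranged from 28.2 to 88.7 CPM in WT with a median of 39.5 CPM, and had 41.0, 42.0, 56.1 and 43.9 CPM in KO (log2 fold change 0.01 ± 0.28 SE, edgeR adjusted p = 0.983). Bckdha and Bckdhb encode the subunits of the first component of the branched-chain keto acid dehydrogenase, the committing step in the breakdown of leucine, isoleucine and valine. Bckdha ranged from 6.87 to 12.5 CPM in WT with a median of 9.55 CPM, and had 10.8, 9.86, 12.8 and 7.96 CPM in KO (log2 fold change 0.12 ± 0.21 SE, edgeR adjusted p = 0.741). B3gnt8, on the opposite strand, overlaps 61.7% of the exon bases of Bckdha, so its reads are uncertain. Bckdhb averaged 83.4 ± 25.2 CPM in WT and 90.4 ± 12.4 CPM in KO. Etnppl, which degrades phosphoethanolamine and is kept here as listed although it acts on no amino acid of protein, ranged from 16.0 to 69.9 CPM in WT with a median of 33.1 CPM. Its KO libraries had 17.3, 18.3, 32.5 and 28.9 CPM (log2 fold change -0.71 ± 0.44 SE, edgeR adjusted p = 0.330).

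**Figure D2:**
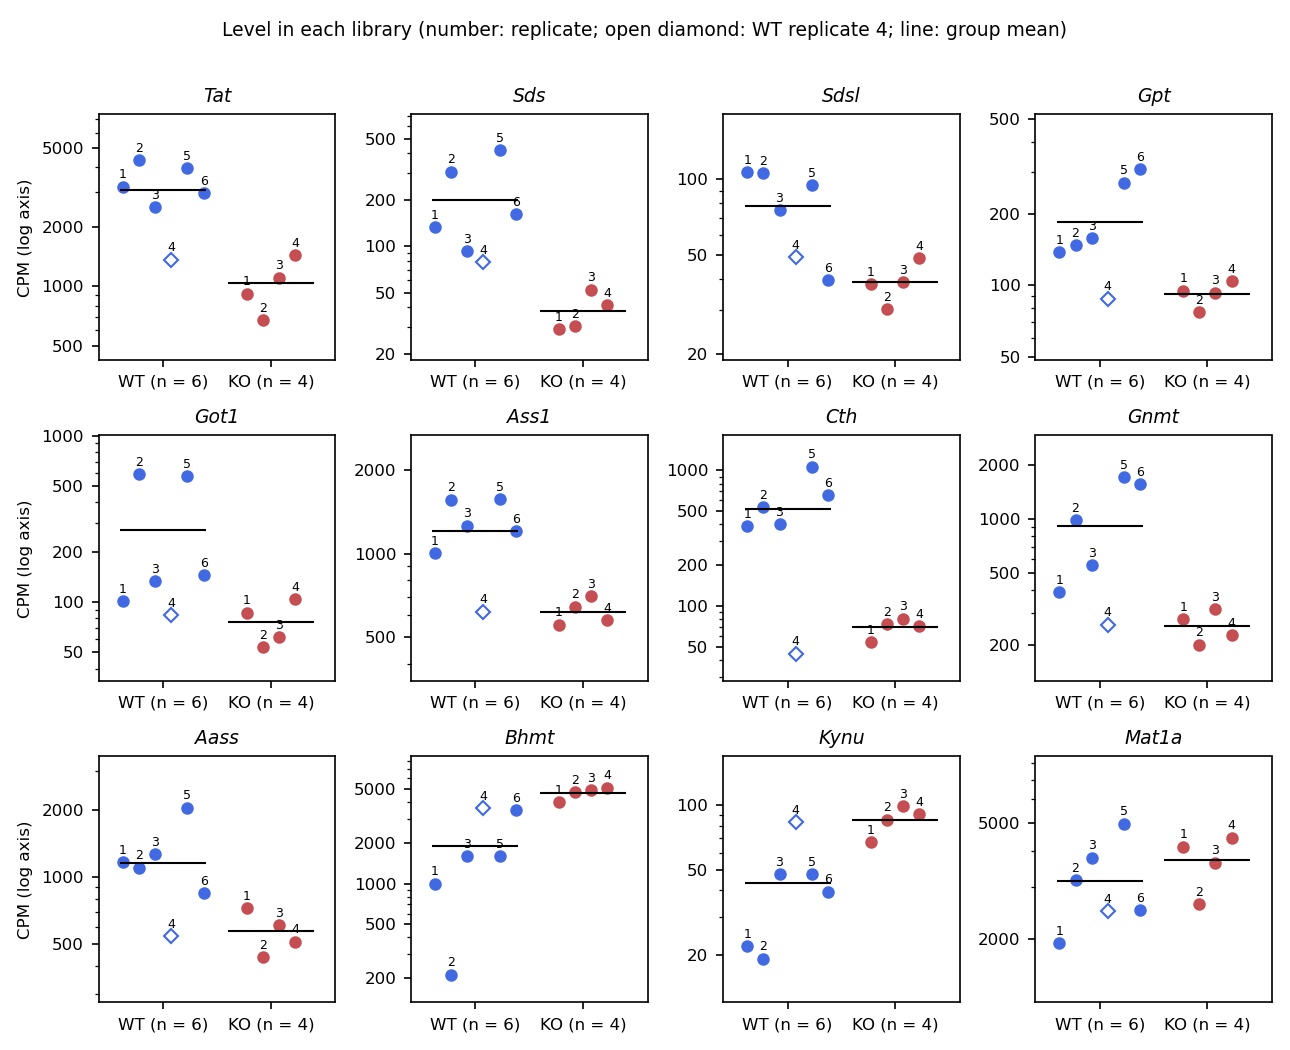
Level of 12 genes in each library, in CPM on a log axis, with WT (n = 6) in blue and KO (n = 4) in red. Numbers give the replicate, horizontal lines the group mean, and the open diamond WT replicate 4. That library lies beside the KO libraries for Tat, Gpt, Got1, Ass1, Cth, Gnmt, Aass and Kynu. For Sds and Bhmt the groups do not overlap.

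The exon length of a gene was taken as all bases in any of its annotated exons, which can exceed the length of the transcript present. Levels were divided by this length to set genes side by side, as CPM per kilobase, so the ranks depend on the annotation. On this scale Tat was the highest of the 39 genes in WT at 1274, followed by Arg1 at 1053, Mat1a at 906 and Gnmt at 754. In KO the order was led by Arg1 at 1187, Mat1a at 1071, Bhmt at 815 and Tat at 430, and Gnmt was at 211. Bhmt moved from rank 7 to rank 3. Cth moved from rank 10 at 185 to rank 30 at 24.9, and Sds from rank 15 at 117 to rank 31 at 22.5. The lowest levels were those of Bckdha, at 5.0 and 5.45, and Etnppl, at 4.78 and 2.94. Ranks rest on group means and were not tested, and the WT levels of Cth, Gnmt and Bhmt spread widely between libraries.

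Together the 39 genes took 1.69% to 3.01% of counts in WT, with a median of 2.21%, and 1.90% to 2.36% in KO, also with a median of 2.21%. Their summed level thus overlapped completely, with the KO range lying inside the WT range. The spread between libraries was wider in WT. The SD of the log2 level was larger in WT than in KO for 36 of 39 genes (92.3%), and for 80.3% of all genes tested. The median log2 SD of the members was 0.57 in WT and 0.21 in KO, against 0.39 and 0.23 over all genes.

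The widest WT spread belonged to Cth, whose highest library was 24.1 times the lowest, followed by Bhmt (17.0 times), Got1 (7.04 times), Gnmt (6.64 times) and Sds (5.34 times). In KO the same ratios were 1.49, 1.29, 1.96, 1.58 and 1.80. WT replicate 5 was the highest of the 10 libraries for 13 genes. The lowest level fell to WT replicate 1 for 10 genes, WT replicate 2 for 9, and WT replicate 4 and KO replicate 2 for 7 each. WT replicate 2, the lowest for Bhmt and Kynu, was also the library with the highest summed neutrophil and Kupffer cell markers, at 165 and 219 CPM, and the part of this in the spread was not tested. The highest summed cholangiocyte level, 283 CPM, was in WT replicate 1.

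The level in WT replicate 4 fell inside the KO range for 15 of the 39 genes (38.5%), a smaller share than the 57.0% of all genes. For these members it was not alone, since WT replicates 3 and 6 did so for 14 genes each and WT replicate 5 for 12. WT replicates 1 and 2 did so for 5 each. The share over all genes was not counted for the other WT libraries. Among the 8 lower genes with an unadjusted p under 0.01, WT replicate 4 was at or below the highest KO library for 6, all but Sds and Sdsl. WT replicate 6 was so for 1 of the 8, Sdsl, and WT replicates 1, 2, 3 and 5 for 0. These 8 genes were picked as lower in KO, which by itself keeps most WT libraries above the KO range. The same share was not counted over all 863 genes that were lower at this p, so nothing particular to the members is read from it.

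**Figure D3:**
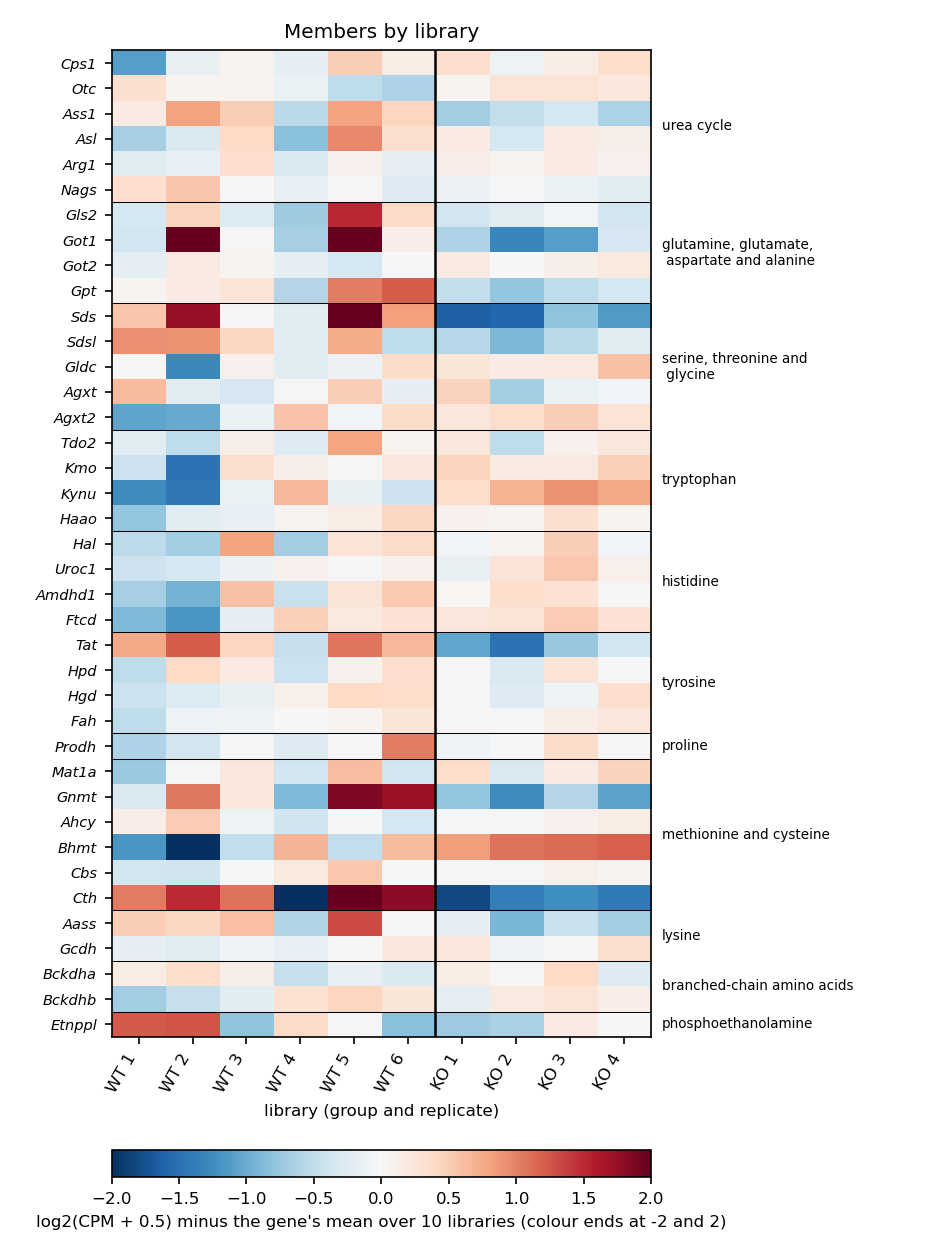
Level of each of the 39 genes in each library, on the log2(CPM + 0.5) scale, drawn as its difference from the average of that gene in all 10 libraries, red for above and blue for below. The vertical line divides the 6 WT from the 4 KO libraries. The columns of KO resemble each other, whereas WT columns differ, as in the Cth row where WT replicate 4 is blue and the other 5 WT libraries are red.

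A further list held 90 other genes of the same pathways, such as transporters, later steps and enzymes of the reverse reactions. Of these, 85 were tested, Arg2 and Pycr1 being too low, and Tdh, Dao and Bcat1 were not analysed here. Against the 1.33% of all genes, 3 passed the edgeR test (3.53%). Glul and Aldh5a1 rose and Mat2a fell. DESeq2 called 14 of 86 (16.3%, against its 10.3% of all genes), 8 higher and 6 lower, and limma-voom called the 3 genes that edgeR called. The fold change was above 0 for 61 of 85 (71.8%) with a median of 0.27, against a median of 0.05 for the 39 genes and -0.02 for all. At an unadjusted p under 0.05, 29 were higher (34.1%, against 11.6% of all genes) and 7 were lower (8.24%, against 14.4%).

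Glul, glutamine synthetase, binds ammonia into glutamine, opposite in direction to Gls2. It ranged from 185 to 474 CPM in WT with a median of 270 CPM, and had 564, 621, 637 and 666 CPM in KO, with no overlap. Glul rose from 285 ± 105 to 622 ± 43.3 CPM (log2 fold change 1.13 ± 0.24 SE, edgeR adjusted p = 0.0467), and the highest WT library was WT replicate 4. Aldh5a1, which oxidizes succinate semialdehyde from the breakdown of GABA, ranged from 14.6 to 23.5 CPM in WT with a median of 18.2 CPM. In KO it had 33.9, 29.0, 30.1 and 31.3 CPM, again with no overlap. It rose by a log2 fold change of 0.71 ± 0.16 SE (edgeR adjusted p = 0.0495).

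Mat2a, the methionine adenosyltransferase that the adult hepatocyte largely replaces with Mat1a, ranged from 94.7 to 253 CPM in WT with a median of 199.6 CPM. The KO libraries had 84.6, 70.0, 77.9 and 76.9 CPM, all below the lowest WT library, which was WT replicate 4. Mat2a fell from 190 ± 55.6 to 77.4 ± 5.97 CPM, with a log2 fold change of -1.30 ± 0.24 SE (edgeR adjusted p = 0.0426). Mat1a, with a log2 fold change of 0.24, was not called.

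Many of these partners belong to the breakdown of branched-chain amino acids. Beside the uncalled Bckdha and Bckdhb, 19 other genes of this route were tested and 15 had a fold change above 0, with a median of 0.38. None was called by edgeR or limma-voom, DESeq2 called Hibadh and Acad8 as higher, and in edgeR 10 were higher (52.6%, against 11.6% of all genes) and 0 lower at an unadjusted p under 0.05. For 6 of the 19 (31.6%, against 3.61% of all genes), namely Bcat2, Auh, Acad8, Hibch, Hibadh and Hsd17b10, every KO library lay above every WT library. The gene 0610005C13Rik, on the opposite strand, overlaps 15.9% of the exon bases of Bcat2 and had 3.41 times its counts, so the reads of Bcat2 are uncertain. Hibadh, a dehydrogenase of valine breakdown, had the smallest p and averaged 158 ± 16.9 CPM in WT and 223 ± 5.52 CPM in KO (log2 fold change 0.50, edgeR adjusted p = 0.0658).

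In the other pathways the partner gene with the smallest p was not called by edgeR. Shmt1, which interconverts serine and glycine, averaged 32.7 ± 16.8 CPM in WT and 72.0 ± 3.54 CPM in KO without overlap (log2 fold change 1.14, edgeR adjusted p = 0.0738). Slc25a15, the carrier that brings ornithine into the mitochondrion for the urea cycle, averaged 420 ± 148 and 218 ± 68.1 CPM (-0.95, adjusted p = 0.0799 in edgeR). Gch1, the first enzyme of the synthesis of the cofactor with which phenylalanine is made into tyrosine, averaged 103 ± 53.0 and 41.6 ± 10.5 CPM (-1.30, adjusted p = 0.105 in edgeR).

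The lowest-p partners of proline, lysine and tryptophan metabolism were Aldh18a1, Hykk and Aadat. Aldh18a1, which makes proline and so acts against Prodh, averaged 4.63 ± 3.53 CPM in WT and 1.35 ± 0.61 CPM in KO (log2 fold change -1.79, edgeR adjusted p = 0.0816). Hykk, the kinase of hydroxylysine, averaged 19.5 ± 19.9 and 58.3 ± 6.95 CPM (log2 fold change 1.58, edgeR adjusted p = 0.109). Aadat, an aminotransferase of kynurenine and aminoadipate, averaged 30.2 ± 7.94 and 46.0 ± 6.05 CPM without overlap (log2 fold change 0.61, edgeR adjusted p = 0.101). All 6 tested partners of lysine breakdown and 18 of the 21 of methionine and cysteine metabolism had a fold change above 0. So did 6 of 8 in the glutamine, glutamate, aspartate and alanine list and 7 of 9 in that of serine, threonine and glycine. The count was lower for the urea cycle, proline and tyrosine, at 2 of 5 each, and for tryptophan, at 3 of 7. Over all genes tested the share above 0 was 48.4%.

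**Figure D4:**
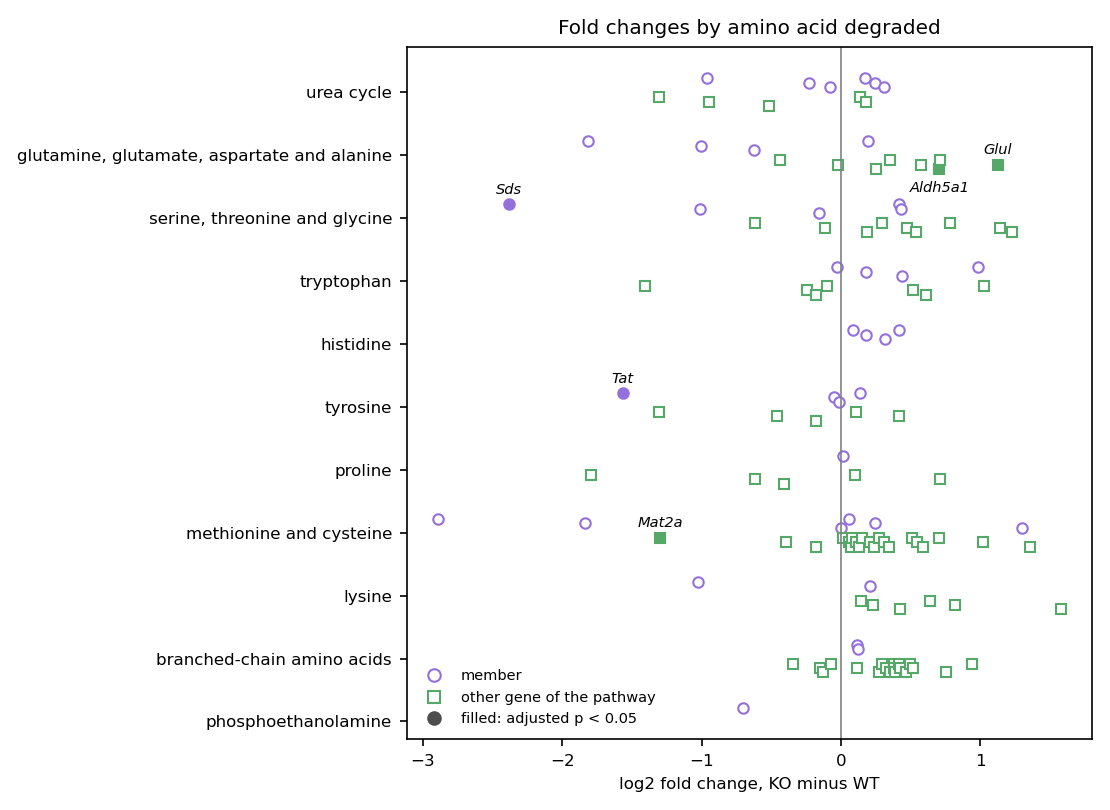
Log2 fold change, KO minus WT, of the 39 genes (circles) and of 85 other tested genes of the same pathways (squares), in rows by amino acid. Filled symbols mark an adjusted p under 0.05 in edgeR, which Tat, Sds and Mat2a had below 0 and Glul and Aldh5a1 above 0. Squares of the branched-chain and lysine rows lie mostly to the right of 0. Those of the urea cycle, tryptophan, tyrosine and proline rows lie more often to its left.

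Of 14 regulators of amino acid catabolism, among them the glucocorticoid and glucagon receptors, C/EBP factors and mitochondrial deacylases, none was called by edgeR or limma-voom. In edgeR 4 were higher and 3 lower at an unadjusted p under 0.05, 7 of 14 against 26% of all genes. DESeq2 called 5 (35.7%, against 10.3% of all genes), Ppara and Sirt5 as higher and Creb3l3, Cebpb and Foxo1 as lower. Sirt5, a mitochondrial deacylase known to act on Cps1, had the smallest p, with 7.58 ± 2.53 CPM in WT and 13.3 ± 1.14 CPM in KO without overlap (log2 fold change 0.81, edgeR adjusted p = 0.0788).

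Because many of these enzymes are zoned along the lobule, zonation markers outside the 39 genes were counted. Of 12 periportal markers edgeR called 1 (8.33%, against 1.33% of all genes). This was Aldh1b1, a mitochondrial aldehyde dehydrogenase, which rose from 5.48 ± 1.28 to 10.4 ± 1.57 CPM (log2 fold change 0.92, edgeR adjusted p = 0.0495). The median log2 fold change of the list was 0.40, against -0.02 for all genes. At an unadjusted p under 0.05 in edgeR, 3 of the 12 were higher and 0 lower (25%, against 26% of all genes). Of 13 pericentral markers edgeR called 1 as higher, Glul, and 1 as lower, Rhbg, which carries ammonium across the membrane (together 15.4%). The median of this list was 0.14, and in edgeR 4 were higher and 3 lower at an unadjusted p under 0.05 (53.8%, against 26% of all genes). DESeq2 and limma-voom also called Lgr5, a receptor of the Wnt pathway, as higher, and DESeq2 called Cyp2c29, a cytochrome P450, as lower. Over all genes DESeq2 called 10.3% and limma-voom 2.07%. Lgr5 was named after its values were seen, with 0.76 ± 0.83 CPM in WT and 5.55 ± 1.94 CPM in KO without overlap (log2 fold change 2.84 ± 0.67 SE, edgeR adjusted p = 0.0546). Rhbg averaged 4.33 ± 1.32 CPM in WT and 1.14 ± 0.53 CPM in KO (log2 fold change -1.91, edgeR adjusted p = 0.0441).

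The calls depended on single libraries. Without WT replicate 4, edgeR called 10 of the 39 genes (25.6%), the 9 that DESeq2 called as lower plus Kynu as higher, and the adjusted p of Cth was 1.5e-04. The same fit called 21.4% of all genes, so the share of both directions together was near the background. By direction, 9 of the 39 genes were called as lower and 1 as higher, against 10.9% and 10.5% of all genes. Without any other 1 library edgeR called 0 members, where 10 to 12 still had an unadjusted p under 0.05. Over all genes these fits called 0 to 55, against 182 with all 10 libraries, so calls were few over the whole table as well. For Tat the adjusted p was 0.0012 without WT replicate 4. Leaving out WT replicates 1, 2, 3, 5 and 6 gave Tat 0.0791, 0.0573, 0.0638, 0.0867 and 0.0759, and leaving out KO replicates 1 to 4 gave 0.146, 0.148, 0.132 and 0.123. For Sds the corresponding edgeR values were 0.0037 without WT replicate 4, then 0.0791, 0.0629, 0.0638, 0.0797 and 0.0759 for the other WT libraries, and 0.148, 0.149, 0.132 and 0.131 for the KO libraries. Their fold changes moved little, from -1.76 to -1.41 for Tat and from -2.56 to -2.02 for Sds. The calls of Glul, Aldh5a1, Mat2a, Aldh1b1 and Rhbg were likewise kept without WT replicate 4 (edgeR adjusted p of 8.3e-04, 0.0049, 2.5e-04, 0.0124 and 0.0024) and lost without any other 1 library, where these values ran from 0.0521 to 0.148.

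**Figure D5:**
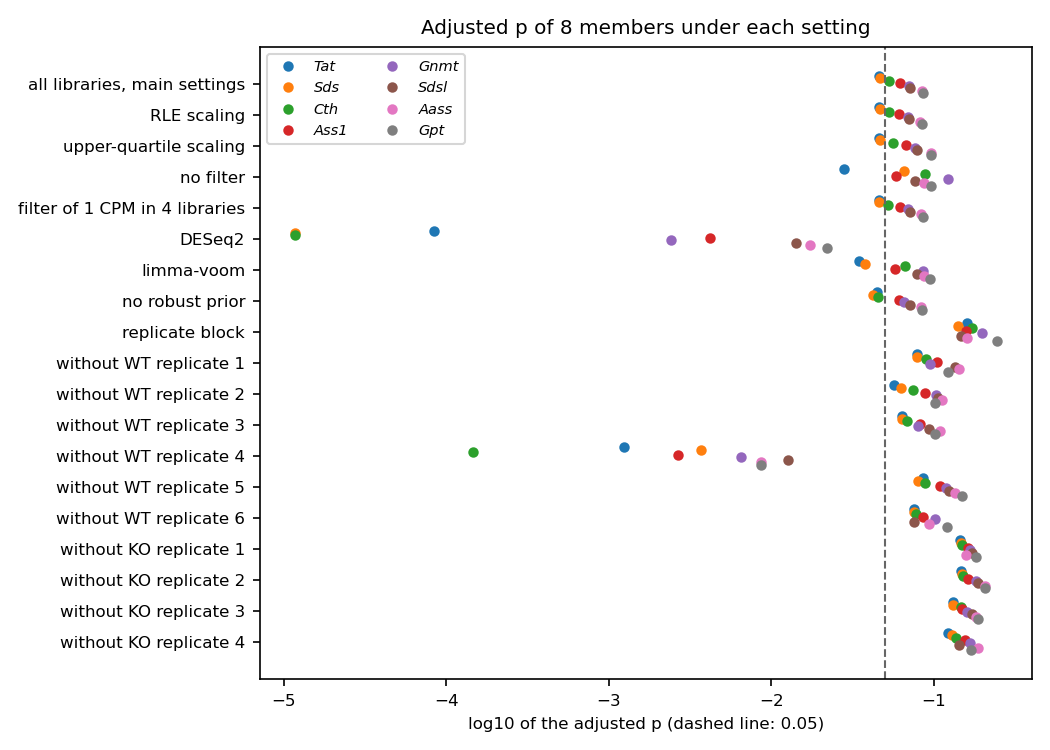
Log10 of the adjusted p of the 8 lower genes with an unadjusted p under 0.01, under each processing setting and with each library left out, with a dashed line at 0.05. Points of all 8 genes lie left of the line with DESeq2 and without WT replicate 4. With any other library left out, all of them lie right of it.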

How the data were processed

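RNA of 10 mouse livers was enriched for mRNA on oligo(dT) beads and sequenced on an Illumina instrument after NEBNext Ultra library preparation, per the labels' protocols. The authors deposited 1 table of unnormalised read counts, with a row per gene and a column per library. The submitters' processing notes name STAR, HTSeq, DESeq2 and the build mm10, and no version, role, annotation or strand setting is given in the sources used here. A row without a gene name, 0.00401% to 0.00941% of counts, was left out.

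Groups came from the genotype labels. Replicate pairs within a group differed beyond sampling noise (chi-square per degree of freedom 23.2 to 189). edgeR 4.0.16 (R 4.3.3) fitted all 10 libraries with TMM scaling, filterByExpr by group and a robust quasi-likelihood test. P-values were adjusted by Benjamini-Hochberg over 13687 genes, which held 99.8% of counts. CPM are scaled by TMM library sizes and SD are over libraries. The standard error is the log2 fold change over the square root of F. Symbols were matched to GENCODE M21 on GRCm38 for position and exon length. Alternatives used RLE and upper-quartile scaling, other filters, DESeq2 1.42.0, limma-voom (limma 3.58.1), no robust prior, a replicate block, and each library left out.

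On simulated counts for this comparison with 13421 genes, edgeR recovered 4% of 50 genes changed 1.5-fold, 36% at 2-fold, 86% at 4-fold and 92% at 8-fold, with 11 false calls. The simulation gave each gene 1 dispersion for both groups, whereas in the data the log2 SD was larger in WT for 80.3% of genes. The members and gene lists were chosen with earlier results of these data known. Values by library are given for members that were called, had an unadjusted p under 0.01 or had the smallest p of their group, and for Got1 and Bhmt, chosen after their values were seen. Of the other lists, called genes and the gene of smallest p are named. The listed Mut and Tf were matched to the table's Mmut and Trf.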

Additional observations from a re-analysis of the deposited data

Results flagged for a closer look

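Among 78 groups of values (39 genes in WT and in KO), 4 held a library that stood apart from the rest by Dixon's criterion, where chance alone gives about 1 in 20. Asl was at 523 CPM in KO replicate 2 and at 728 to 753 CPM in the other KO libraries. Gls2 was at 186 CPM in WT replicate 5 and at 39.7 to 88.8 CPM in the other WT libraries. Haao was at 218 CPM in KO replicate 3 and at 181 to 186 CPM in the other KO libraries. Prodh was at 88.7 CPM in WT replicate 6 and at 28.2 to 42.8 CPM in the other WT libraries.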

How the results depend on the processing

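Of the 39 genes, 30 kept the direction of their fold change in all 18 alternatives, among them the 8 lower genes with an unadjusted p under 0.01. The count of called genes among the 39, 2 in the reported fit, was 1 with no filter, 9 in DESeq2 and 0 with a replicate block, and ran from 0 to 10 when 1 library was left out. With the block 13 members had an unadjusted p under 0.05. Among the other pathway genes the count of 3 became 14 in DESeq2, 0 with the block and 0 to 29 with 1 library left out. Over all genes the count of 182 became 1624 in DESeq2, 283 in limma-voom (208 higher and 75 lower, against 77 and 105), 1 with the block and 0 to 2893 with 1 library left out, and upper-quartile scaling gave 78 higher and 75 lower. Same-numbered WT and KO libraries had correlations of deviations of 0.18, 0.07, -0.03 and -0.02. The best-matching KO library shared the number for WT replicates 1 and 2 but not 3 and 4. Whether equal numbers mark paired samples is not given by the labels, and these few values cannot decide it.

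Log2 fold changes close to 0 reversed in sign. With the block they became 0.37 for Asl, 0.22 for Tdo2, 0.0823 for Hpd and 0.19 for Hgd. Limma-voom gave Asl 0.0343, upper-quartile scaling gave Tdo2 0.0073 and Hgd 0.0215, and Cbs was -0.0051 with RLE scaling and -0.0072 in DESeq2. With 1 library left out, the range was -0.21 to 0.17 for Asl, -0.37 to 0.0065 for Agxt, -0.13 to 0.17 for Tdo2, -0.0587 to 0.30 for Hal, -0.14 to 0.0376 for Hpd, -0.13 to 0.0666 for Hgd, -0.0961 to 0.32 for Prodh, -0.0116 to 0.18 for Ahcy and -0.0728 to 0.13 for Cbs. The cause of these changes was not tested. In the simulation of this comparison edgeR called 2 of 50 genes changed 1.5-fold, and the estimated direction was wrong for 3 of the 50. Most changes of that size thus went uncalled in simulated counts at this number of libraries. The rates may differ in the data, where the spread was not the same in WT and KO.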
